A study of Mus musculus with 9 samples.

Results

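The genes examined were 10 genes of the smooth muscle contractile apparatus, *Acta2*, *Actg2*, *Myh11*, *Tagln*, *Cnn1*, *Des*, *Smtn*, *Lmod1*, *Cald1* and *Mylk*, out of 21755 protein-coding genes annotated on the autosomes and X. They were chosen by name. For each gene all ChIC-Seq peaks were collected in the gene body and 20 kb on each side (GENCODE M21, GRCm38/mm10). Peaks with a summit no more than 2 kb from a start of the gene were classed as promoter, and the others as exonic, intronic or flanking. In ChIC-Seq an antibody carries micrococcal nuclease to its target in fixed cells, and the released DNA fragments are sequenced. The cells were primary muscle cells dissociated from oviducts of WT mice aged 8 to 12 weeks on day 2 of pregnancy, plated for some hours with no sorting step given, and each library was made from 50000 fixed cells. Antibodies against PBRM1 and against BRG1 were used, with 3 replicates each, and the 3 control IgG samples in the labels were not analysed here. All libraries share the WT genotype, so the comparison was between antibodies and not between genotypes. The labels do not say whether replicates came from separate animals, so p-values measure the spread between these libraries, which may be technical.

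Smooth muscle of the oviduct moves eggs and early embryos toward the uterus. Its contraction begins when calcium and calmodulin activate myosin light chain kinase (*Mylk*), which phosphorylates the light chains of smooth muscle myosin (heavy chain *Myh11*). Myosin then pulls on actin filaments of which *Acta2* and *Actg2* encode the smooth muscle isoforms. Many of these genes are switched on by serum response factor with myocardin through a DNA element called the CArG box. SWI/SNF complexes use ATP to move nucleosomes. BRG1 can serve as their motor, and PBRM1 (also named BAF180) belongs to the variant called PBAF.

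The sequences that follow show where CArG boxes lay in relation to the peaks. Each is read 5′ to 3′ on the strand of the gene from GRCm38.p6, and capitals mark an exact CArG box, found on either strand. The *Cald1*, *Smtn* and upstream *Acta2* sequences lie in peaks. The *Actg2* sequence ends just before the start of the gene and is shown because both of its boxes lay outside every peak.
Cald1 promoter (chr6:34598225-34598425, plus strand): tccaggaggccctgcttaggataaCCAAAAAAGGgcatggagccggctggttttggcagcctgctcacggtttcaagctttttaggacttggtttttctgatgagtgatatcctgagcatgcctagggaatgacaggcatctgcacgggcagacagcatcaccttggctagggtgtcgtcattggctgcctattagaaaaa
Smtn internal region (chr11:3535668-3535848, minus strand): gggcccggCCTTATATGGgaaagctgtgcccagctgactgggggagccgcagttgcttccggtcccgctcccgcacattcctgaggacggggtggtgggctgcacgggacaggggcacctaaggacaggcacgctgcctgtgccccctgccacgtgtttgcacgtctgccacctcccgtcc
Acta2 upstream region (chr19:34265650-34265849, minus strand): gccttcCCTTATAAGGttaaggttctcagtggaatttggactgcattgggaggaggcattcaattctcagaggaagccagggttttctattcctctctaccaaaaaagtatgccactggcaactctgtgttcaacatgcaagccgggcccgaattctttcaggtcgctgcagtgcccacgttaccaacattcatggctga
Actg2 promoter (chr6:83536266-83536425, minus strand): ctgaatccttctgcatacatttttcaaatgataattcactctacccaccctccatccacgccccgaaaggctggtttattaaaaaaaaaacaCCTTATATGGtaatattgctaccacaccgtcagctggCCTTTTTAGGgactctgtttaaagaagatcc

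The replicate libraries held 14284532 to 23992352 fragments, and every BRG1 library was shallower than every PBRM1 library. A peak's height was expressed as its pileup, the number of fragments covering the summit, for each 1000000 fragments of that library (FPM). The weakest peak of a list had 6 to 8 fragments, or 0.333 to 0.42 FPM, so an empty promoter means that no peak was called and not that no fragment was present.

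To learn which contractile genes carried PBRM1 and BRG1 at their starts, promoter peaks were scored in each of the 6 replicate lists. Of the 10 genes, 5 had a promoter peak in all 6 lists (*Acta2*, *Tagln*, *Smtn*, *Cald1* and *Mylk*), 4 had one in 1 to 5 lists, and *Cnn1* had none. Among all protein-coding genes 41.8% had a promoter peak in all 6 lists and 34.3% in none. A peak near any start counted, and *Mylk*, *Cald1* and *Smtn* had the most start sites of the 10 genes (8, 6 and 5). The shares of all genes were not matched for the number of starts. The lists called on pooled replicates held a promoter peak for 9 of the 10 genes with PBRM1, against 66.0% of all genes, and for the same 9 with BRG1, against 67.8%. *Cnn1* was without one in both pooled lists. Of the 5 genes, 3 (*Smtn*, *Cald1* and *Mylk*) kept a peak in every list when peaks needed a −log10 q of at least 5. At that cutoff 6513 regions over the genome had a peak in all 6 lists, against 12842 without it. Without PBRM1 replicate 2, *Lmod1* joined the 5 genes, making 6. The share of all genes was not counted for either alternative.

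**Figure D1:**
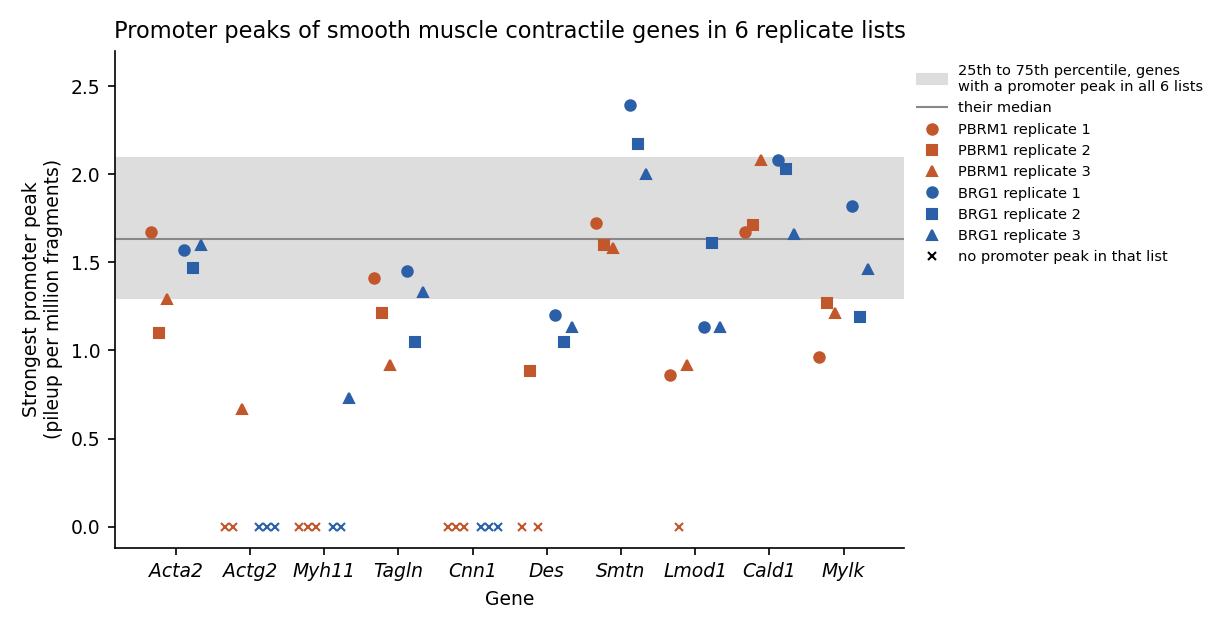
Pileup in FPM (y axis) of the strongest promoter peak of each gene (x axis) in 3 PBRM1 (orange) and 3 BRG1 (blue) replicate lists. The strongest peak was taken over all starts of the gene. A cross at 0 marks a list where no promoter peak was called. The gray band and line give the quartiles (1.3 and 2.09) and median (1.63) of genes with a promoter peak in all 6 lists. *Smtn* and *Cald1* had means above that median and *Acta2*, *Tagln* and *Mylk* below it.

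Among the actins, *Acta2* (ENSMUSG00000035783.9, chr19:34241090-34255590, minus strand) encodes the isoform best known from vascular smooth muscle. It had a promoter peak of 1.67, 1.1 and 1.29 FPM in the PBRM1 libraries and of 1.57, 1.47 and 1.6 in the BRG1 libraries. The ranges of the antibodies overlapped. The common region (chr19:34255243-34256087) had its summit 90 bp downstream of the GENCODE start, within the first exon of that transcript. RefSeq places the start of *Acta2* further downstream, with the GENCODE start at −217 bp and the summit at −127 bp of it. No exact CArG box was found in this peak. It held 2 boxes with a single C or G among the middle bases (CCCTATATGG and CCTTGTTTGG), 138 and 188 bp downstream of the GENCODE start. Both lay upstream of the RefSeq start, and both were covered by a peak in all 6 lists.

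*Actg2* (ENSMUSG00000059430.14, chr6:83512905-83536265, minus strand) encodes the enteric actin and had a promoter peak in 1 list only, PBRM1 replicate 3, at 0.667 FPM. The pooled lists placed weak peaks of 0.452 and 0.487 FPM on opposite sides of its start. The only region of its window with a peak in all 6 lists was 29.3 kb downstream of its 5′-most start, at the start of *Dguok*, a mitochondrial kinase gene. The exact CArG boxes shown above lay at −26 and −63 bp from the 5′-most start and were under no peak of any list, pooled lists included.

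*Myh11* (ENSMUSG00000018830.10, chr16:14194535-14291372, minus strand) encodes the heavy chain of smooth muscle myosin and spans 96.8 kb. Its promoter peak was called in BRG1 replicate 3 alone, at 0.732 FPM, yet both pooled lists held it at 0.678 (PBRM1) and 0.641 (BRG1) FPM. At most 3 peaks were called in its 137 kb window in any replicate list, and no region of it was found in 3 or more lists.

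*Mylk* (ENSMUSG00000022836.11, chr16:34745210-35002420, plus strand) had its promoter peak in all 6 lists, with 0.96, 1.27 and 1.21 FPM for PBRM1 and 1.82, 1.19 and 1.46 for BRG1. This peak (chr16:34745057-34745651) lay 72 bp from the 5′-most start, that of a transcript annotated as a retained intron. The next start, that of a protein-coding transcript and the one given by RefSeq, had a peak in PBRM1 replicate 2 alone, at 0.441 FPM. The downstream start of the short protein-coding transcript Mylk-203 had a peak in BRG1 replicates 1 and 3, at 1.13 and 0.998 FPM, and in no PBRM1 replicate list. With starts of protein-coding transcripts only, *Mylk* therefore left the group of genes with a promoter peak in all 6 lists, and 4 genes remained. The share of all genes was not counted with these starts.

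*Tagln* (ENSMUSG00000032085.5, chr9:45929619-45936058, minus strand) encodes transgelin, an actin-associated protein of smooth muscle. It had promoter peaks of 1.41, 1.21 and 0.917 FPM for PBRM1 and 1.45, 1.05 and 1.33 for BRG1. In PBRM1 replicate 3 the peak lay at −980 bp from the start and did not meet the others, so the region at the start itself was counted in 5 lists. Exact CArG boxes lay 16 bp downstream of the start and at −107 bp. Each was under a peak in 2 replicate lists and in both pooled lists.

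*Smtn* (ENSMUSG00000020439.17, chr11:3517523-3540612, minus strand) encodes smoothelin, which is found in contractile smooth muscle cells. Its peak near the start used by most transcripts (chr11:3539040-3539775) reached 1.72, 1.6 and 1.42 FPM for PBRM1 and 2.39, 2.17 and 2.0 for BRG1, and the groups did not overlap. A second region in all 6 lists (chr11:3535470-3536053) lay in the gene body 1.71 kb from an internal start, near the start of the noncoding gene *Gm11947*. There the values were 1.47, 1.32 and 1.58 for PBRM1 and 2.01, 1.82 and 2.0 for BRG1, again without overlap. BRG1 was higher over the genome too, by a median of 0.49 (log2) over all regions found in all 6 lists. These 2 regions differed by 0.47 and 0.42, or by 0.004 and −0.049 after centring each library on its median. The share of all regions without overlap was not counted. The CArG box of the second region was covered in all 6 lists.

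*Cald1* (ENSMUSG00000029761.16, chr6:34598500-34775473, plus strand) encodes caldesmon, which binds actin and restrains myosin. Its promoter region (chr6:34597888-34598889) held 1.67, 1.71 and 2.08 FPM for PBRM1 and 2.08, 1.68 and 1.6 for BRG1, so that the antibodies covered the same range. The second start of the gene had a peak in 4 lists, PBRM1 replicate 1 (1.47 FPM) and all 3 BRG1 replicates (1.66 to 2.08 FPM). An exact CArG box (chr6:34598249-34598258) lay upstream of the first start, under a peak in all 6 lists.

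*Cnn1* (ENSMUSG00000001349.5, chr9:22099216-22109630, plus strand) encodes calponin, an actin-binding inhibitor of myosin ATPase, and none of its 4 start sites had a peak within 2 kb. The nearest summit of a region was at −3.02 kb, and that region was found in all 6 lists. It held 1.57, 1.21 and 1.0 FPM for PBRM1 and 2.01, 2.03 and 1.86 for BRG1, and every BRG1 value was above every PBRM1 value. The difference was 0.67 (log2), beside a median of 0.49 over all regions found in all 6 lists, and 0.20 after centring. How many of all regions separate in this way was not counted. The only exact CArG box within 2 kb of the 5′-most start lay 914 bp downstream of it, at −62 bp from the second start. That second start belongs to a protein-coding transcript, and the box was under no peak.

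*Des* (ENSMUSG00000026208.9, chr1:75360329-75368579, plus strand) encodes desmin, the muscle intermediate filament protein. *Lmod1* (ENSMUSG00000048096.7, chr1:135324807-135368065, plus strand) encodes leiomodin, which nucleates actin filaments. A promoter peak of *Des* was called in PBRM1 replicate 2 (0.883 FPM) and in all 3 BRG1 lists (1.2, 1.05 and 1.13), and the pooled lists held 0.517 FPM with PBRM1 and 1.06 with BRG1. The peak of *Lmod1* was missing in PBRM1 replicate 2 and stood at 0.859 and 0.917 in the other PBRM1 lists and at 1.13, 1.61 and 1.13 in the BRG1 lists. With *Myh11*, these made 3 genes with a promoter peak in more BRG1 than PBRM1 lists, a state found in 14.7% of all genes. *Actg2* was the 1 gene with the opposite pattern, found in 5.48% of all genes.

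In height the promoter peaks of contractile genes stood on both sides of the middle of all genes. The strongest promoter peak in each list, at any start of the gene, was averaged over 6 lists. So taken, *Smtn* reached 1.91 and *Cald1* 1.87 FPM, above 67.3% and 65.3% of the 9092 genes with a promoter peak in all 6 lists. *Acta2* (1.45), *Mylk* (1.32) and *Tagln* (1.23) were above 36.5%, 26.3% and 19.4%. These means can mix sites. For *Cald1* the values of BRG1 replicates 2 and 3 (2.03 and 1.66) came from its second start. The *Smtn* value of PBRM1 replicate 3 (1.58) came from the internal region. *Smtn* and *Cald1* differed by less than the SD between replicates (0.0732 to 0.229 FPM within an antibody), and so did *Mylk* and *Tagln* (SD of 0.164 to 0.318).

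Starts of the contractile genes were poor in CpG. Within 250 bp of the start used by most protein-coding transcripts, the ratio of observed to expected CpG had a median of 0.301 over the 10 genes and 0.598 over all genes, whereas GC content was close (56.0% and 57.5%). A ratio under 0.4 was seen at 6 of the 10 genes (*Acta2*, *Actg2*, *Cnn1*, *Lmod1*, *Cald1* and *Mylk*), and 3 of these 6 (*Acta2*, *Cald1* and *Mylk*) had a promoter peak in all 6 lists. Of all 8320 genes with a ratio under 0.4, 10.6% had such a peak. For *Mylk* the peak was not at that start: the 5′-most start, where the peak lay, had a ratio of 0.927. The remaining 4 genes (*Myh11*, *Tagln*, *Des* and *Smtn*) lay between 0.4 and 0.75, where 49.7% of all genes had a promoter peak in all 6 lists and 2 of the 4 did. None of the 10 genes had a ratio of 0.75 or more at the start used, the class that held 35.7% of all genes and in which 69.4% had such a peak. The limits of these classes were set after the values were seen.

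To place the contractile genes among related genes, promoter peaks were counted in 3 further lists. Of 25 other genes of the smooth muscle cytoskeleton, 17 had a promoter peak in all 6 lists and none lacked one in every list. The highest means belonged to the focal adhesion gene *Vcl* (4.28 FPM), the actin-severing gene *Dstn* (3.24) and the actin crosslinker gene *Actn1* (2.72), all above the highest contractile gene. Of 8 relatives used in most cells, 5 had a promoter peak in all 6 lists, led by the nonmuscle myosin gene *Myh9* (3.61), the cytoplasmic actin gene *Actg1* (3.07) and *Myh10* (2.7). Of 10 relatives used in striated muscle or neurons, none had a promoter peak in all 6 lists, and 6 had none in any list (*Acta1*, *Actc1*, *Lmod2*, *Mylk2*, *Smtnl1* and *Myh6*). The other 4 had one in 1 or 2 lists, at 0.49 to 0.657 FPM for *Lmod3*, *Mylk3* and *Nefl* and 0.7 for *Tagln3*.

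**Figure D2:**
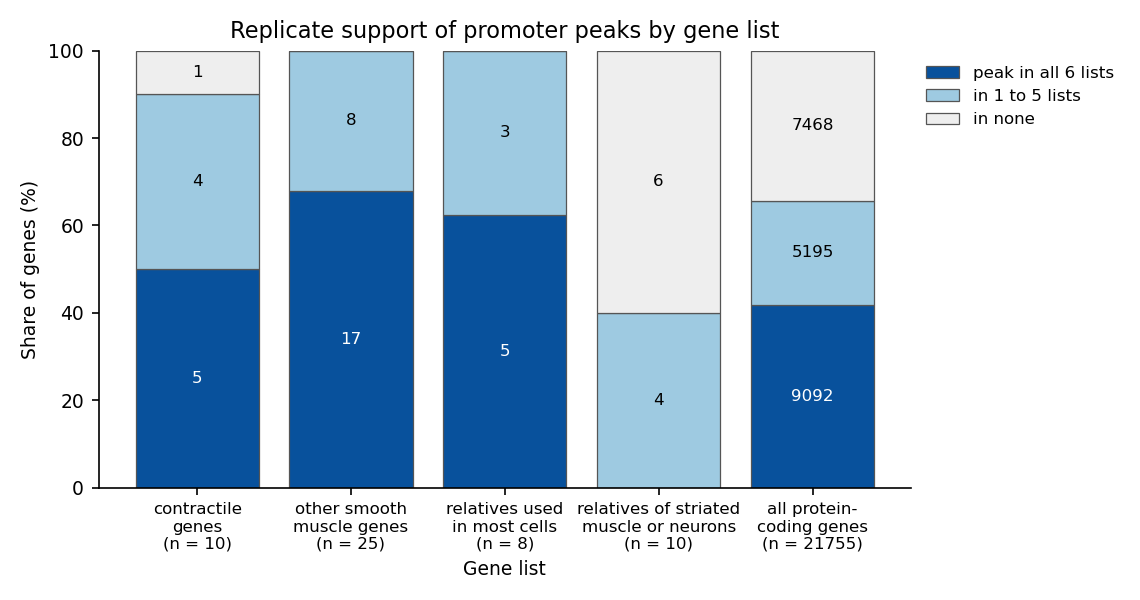
Share of genes (y axis, %) with a promoter peak in all 6 replicate lists, in 1 to 5 or in none, for 5 gene lists (x axis), with the number of genes printed in each bar. All 6 lists held a peak for 5 of 10 contractile genes, 17 of 25 other smooth muscle genes, 5 of 8 relatives used in most cells and 0 of 10 relatives of striated muscle or neurons, beside 9092 of 21755 genes.

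Markers of other cells in the oviduct were read in the same way, and their part in these results was not tested. None of 7 epithelial markers had a promoter peak in all 6 lists, and *Epcam*, *Pax8*, *Ovgp1* and *Foxj1* had none in any replicate list. *Foxj1*, a gene of ciliated cells, nevertheless had pooled promoter peaks of 0.985 (PBRM1) and 1.3 FPM (BRG1), higher than those of *Actg2*, *Myh11* and *Des*. The 3 leukocyte markers had none in any list, pooled lists included. All 3 fibroblast markers had a peak in 1 to 3 lists, with *Dcn* in all 3 BRG1 lists at 0.944 to 1.4 FPM and in no PBRM1 list. Of 3 endothelial markers, *Tek* had a peak in all 6 lists with a mean of 0.662 FPM, *Pecam1* in 1 list and *Cdh5* in none. The pooled lists held a promoter peak for 4 (PBRM1) and 6 (BRG1) of the 7 epithelial markers and for all 3 fibroblast markers. Among all genes the pooled shares were 66.0% (PBRM1) and 67.8% (BRG1). In the replicate lists 41.8% of all genes had a promoter peak in all 6 and 34.3% in none. Where a sample may hold several cell types, fewer cells with a bound promoter and less binding per cell cannot be told apart.

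Beyond the promoters, the windows of the 10 genes held 37.3 ± 3.51 peaks per PBRM1 library and 47.3 ± 8.5 per BRG1 library (SD, n = 3 each). The lists overlapped in number, with 34 to 41 for PBRM1 and 39 to 56 for BRG1. Promoter peaks numbered 9.0 ± 1.73 and 11.7 ± 1.15, intronic peaks 10.0 ± 2.0 and 13.7 ± 3.51, and flanking peaks 17.3 ± 2.52 and 21.7 ± 3.51 for PBRM1 and BRG1. Of the flanking peaks 10.7 ± 1.53 and 11.7 ± 1.15 lay within 2 kb of the start of another gene. *Cald1* had 6 to 16 peaks per list in a 217 kb window, *Mylk* 5 to 9 in 297 kb and *Lmod1* 5 to 7 in the shorter window of 83.3 kb. Whole lists held 31970 to 38147 peaks for PBRM1 and 35220 to 39467 for BRG1. With the 31970 strongest peaks of each list the means were 34.3 ± 1.53 and 41.0 ± 7.55, a difference of 6.67 instead of 10.0 peaks. At a −log10 q of at least 5 the means were 21 ± 2.0 and 23.3 ± 3.79, a difference of 2.33. Without BRG1 replicate 3, which had 56 peaks, the difference was 5.67.

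Merging the 6 lists gave 90 regions in these windows, of which 18 (20%) had a peak in every list, against 15.5% of all merged regions of the genome. By class, these were 6 of 17 promoter, 2 of 37 intronic and 10 of 35 flanking regions, and the single exonic region, in *Lmod1*, was found in 4 lists. Of the 10 flanking regions 7 lay at the start of another gene. Of the 90 regions 41 were seen in 1 list only, and over the genome 38986 of 83005. A region complete for one antibody (3 of 3 lists) and absent for the other did not occur. Neither this state nor the split by class was counted over the genome. At a −log10 q of at least 5, 10 of the 18 were left in every list, and over the genome 6513 of 12842.

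**Figure D3:**
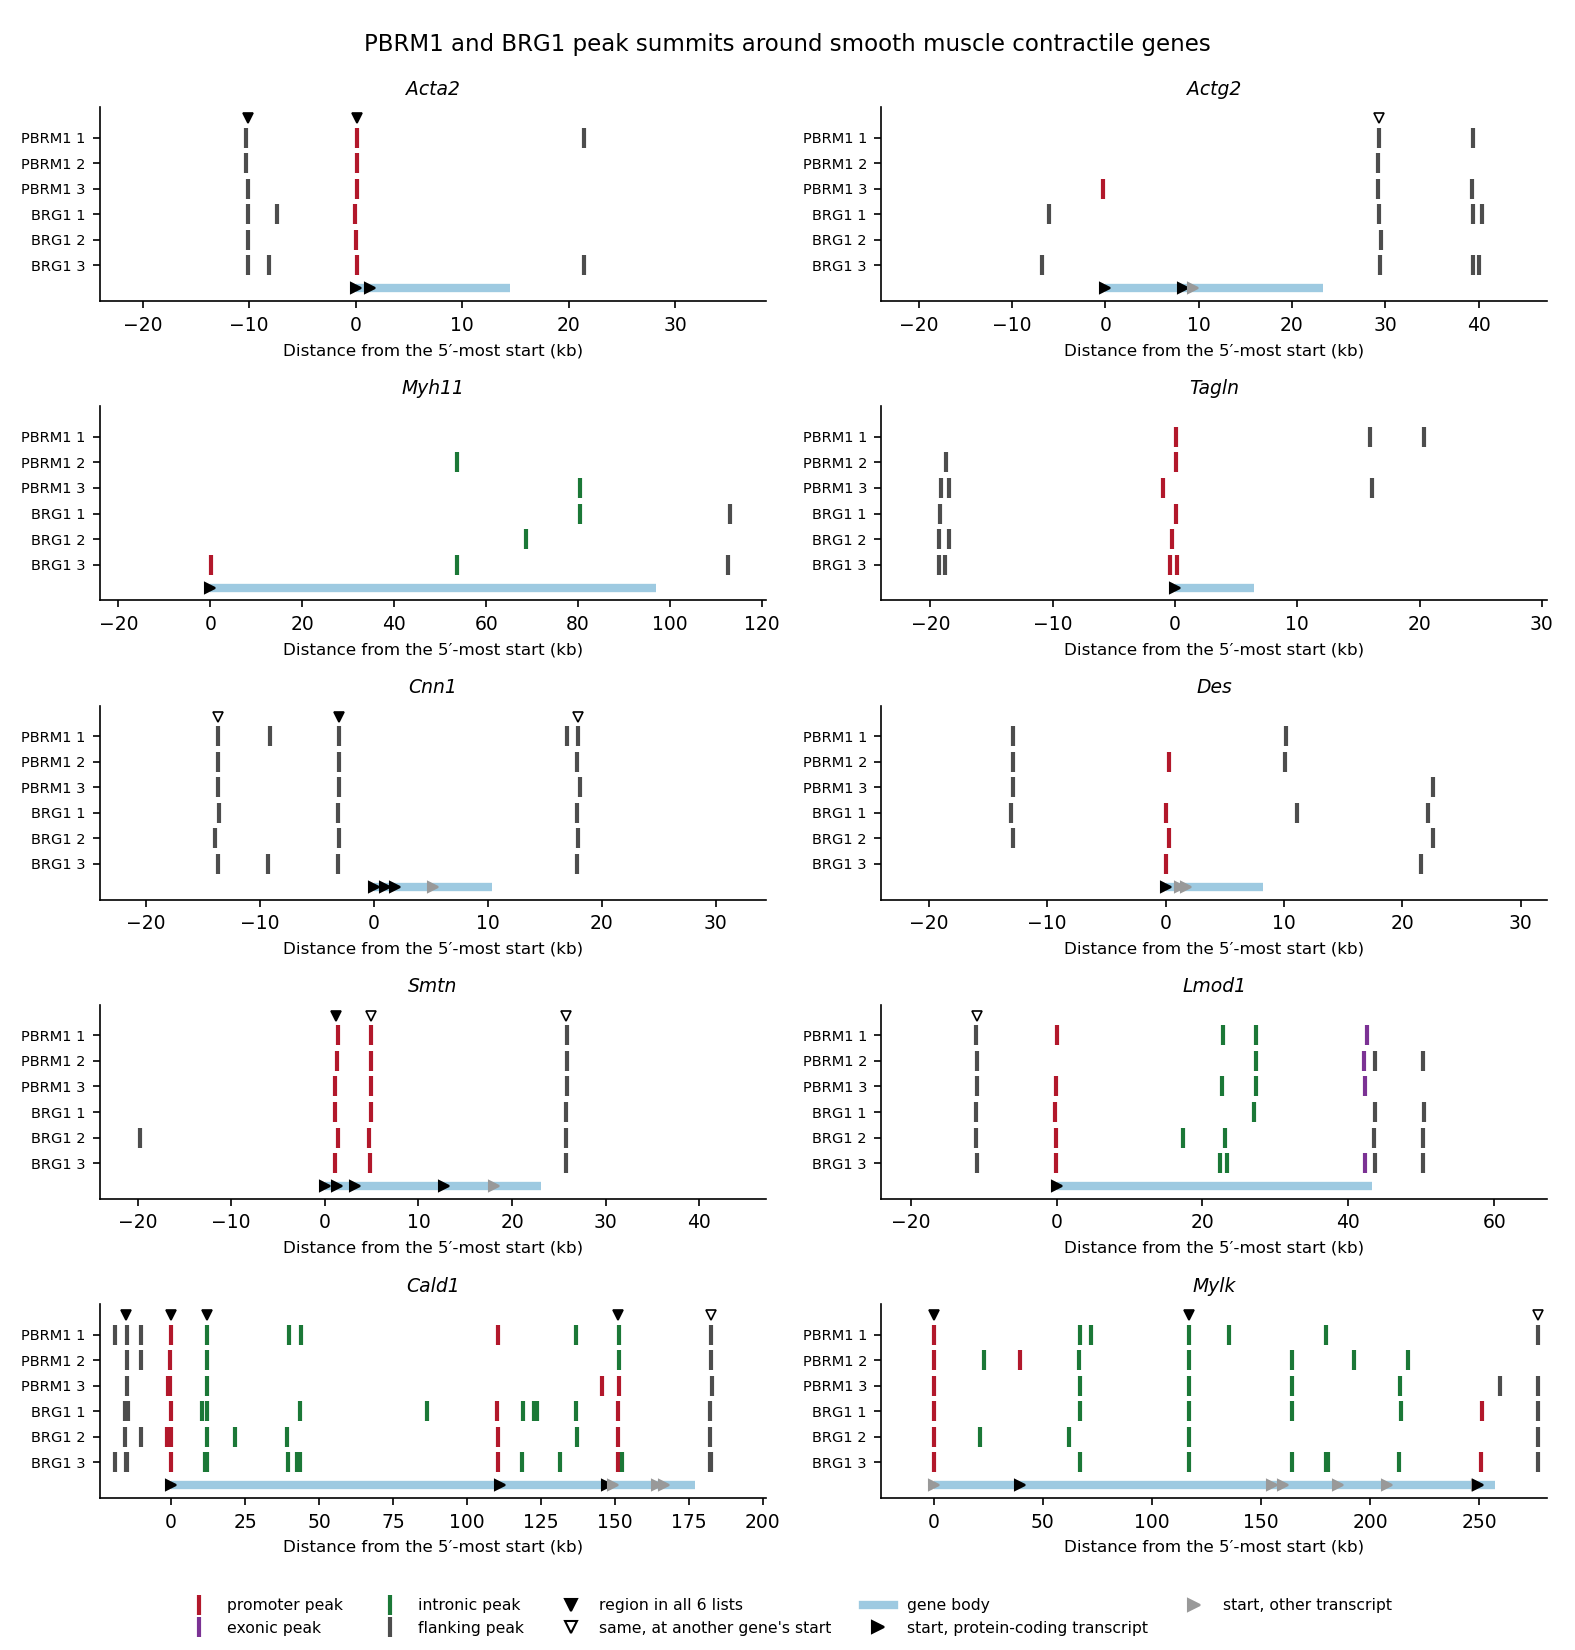
Summits of peaks in the 3 PBRM1 and 3 BRG1 replicate lists (rows) against the distance in kb from the 5′-most start (x axis) for each of the 10 genes, colored by class, with the gene body as a bar, starts as arrowheads, and triangles over regions found in all 6 lists (open where another gene starts within 2 kb). *Acta2* and *Cnn1* each show a column of 6 upstream summits, at −10.1 and −3.02 kb, and the start of *Cnn1* is empty.

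Regions in all 6 lists that lay outside promoters and away from other genes' starts were found at 4 genes, among them the *Cnn1* region at −3.02 kb. For *Acta2* such a region lay at −10.1 kb (chr19:34265582-34266097), with 1.41, 1.38 and 0.959 FPM for PBRM1 and 1.2, 1.89 and 1.13 for BRG1, a range that overlapped that of its promoter with either antibody, and it held an exact CArG box. For *Cald1* there was a region at −15.1 kb (chr6:34582955-34584129; 0.938 ± 0.0215 for PBRM1 and 0.839 ± 0.15 for BRG1, SD, n = 3 each) and an intronic one 12.1 kb downstream of a start (chr6:34610430-34610849; 1.46 ± 0.26 and 1.52 ± 0.328). *Mylk* had an intronic region 117 kb into the gene (chr16:34861593-34862506; 0.837 ± 0.236 and 0.972 ± 0.147). A further *Cald1* region (chr6:34749329-34749976) was classed as promoter because it lay 1.89 kb from the start of a retained-intron transcript.

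Outside promoters, regions in 4 or 5 lists were found at *Lmod1*, *Des*, *Mylk*, *Tagln* and *Actg2*. In the intron of *Lmod1*, a region 27.3 kb into the gene held 1.16, 1.16 and 1.25 FPM in the PBRM1 lists and 1.57 in BRG1 replicate 1, and had no peak in the other BRG1 lists. The region at its last exon, 42.3 kb into the gene, held 1.57, 0.938 and 1.04 for PBRM1 and 1.06 in BRG1 replicate 3. The region just beyond its 3′ end showed the opposite support, with 1.38 in PBRM1 replicate 2 and 1.32, 1.47 and 1.66 in the BRG1 lists. So did the region by the start of *Shisa4*, with 1.27 in PBRM1 replicate 2 and 1.57, 1.26 and 1.6 in the BRG1 lists. *Des* had a region at −12.9 kb in every list but that of BRG1 replicate 3, at 0.909 to 1.19 FPM. In the introns of *Mylk* a region 67.1 kb into the gene was in every list but that of BRG1 replicate 2, at 0.717 to 1.13 FPM, and one 164.0 kb into the gene was in 2 lists of each antibody, at 0.662 to 1.07 FPM. Beyond the 3′ end of *Actg2*, 39.4 kb from its 5′-most start, a region was likewise in 2 lists of each antibody, at 0.606 to 0.944 FPM. At *Tagln* a region at −18.8 kb, by the start of *Sidt2*, was in every list but that of PBRM1 replicate 1, at 0.883 and 0.959 for PBRM1 and 1.53 to 2.1 for BRG1. Support in fewer lists does not show that the antibodies differ, since these regions entered no test.

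Regions found in all 6 lists were searched for CArG boxes. Within 150 bp of the summit, 2 of the 18 regions found in all 6 lists held an exact box (the *Cald1* promoter and the *Acta2* region at −10.1 kb), compared with 1.75% of 12830 such regions on assembled chromosomes and 1.37% of the 7823 of them at a promoter. Within 250 bp the number was 3, with the *Smtn* internal region added, against 2.78% of all regions. Within 2 kb of a start the 10 genes held 19 exact boxes. Of these, 2 were covered by a peak in all 6 replicate lists, 2 in 2 lists, and 15 in none. A *Mylk* box among the 15 lay in a pooled BRG1 peak. The share of covered boxes was not counted over all genes. An exact box within 2 kb of the start used by most protein-coding transcripts was present at 6 of the 10 genes and at 18.7% of all genes. The presence of a box says nothing about whether a factor was bound there.

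Other motifs were searched within 150 bp of the summit on both strands. The MCAT motif (CATTCC) was found in 5 of the 18 regions and in 16.8% of all regions in 6 lists, at promoters 10.8%. AP-1 (TGANTCA) was found in 2 of 18, among them the *Cald1* region near the internal start, and in 17.3% of all, at promoters 5.88%. The GC box (GGGCGG) was found in 10 of 18 and in 47.6% of all, at promoters 68.0%. No motif of this search contains another. Of the 18 regions 8 lie at the start of another gene, so these counts are not of contractile gene promoters alone.

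The last comparison asked whether the antibodies differed in signal at the regions found in all 6 lists. It was made with limma on log2 FPM over all 12842 such regions of the genome with Benjamini-Hochberg adjustment, and differences are given as BRG1 minus PBRM1. Over all regions the median difference was 0.49 (log2), with 52.3% called higher and 0.530% called lower with BRG1. The shift depends on the scaling: after centring each library on its median, 1.02% were called higher and 2.23% lower. The values that follow are therefore set against the median of all regions.

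Of the 18 contractile gene regions 6 were called higher with BRG1 and none lower, and their median difference was 0.39. After centring, 1 was called higher and 1 lower. The 10 regions with no other gene starting within 2 kb had a median of 0.18 and 9 of them were below the median of all regions, whereas the 8 regions at another gene's start had a median of 0.47. By fold enrichment over the local background these medians were 0.12 and 0.15, beside 0.20 over all regions, so this gap was not seen on that scale, and it was not tested on either. The 2 called regions away from other genes were the *Cnn1* region at −3.02 kb (PBRM1 0.31 and BRG1 0.98 on the log2 scale, difference 0.67 ± 0.20 SE, limma adjusted p = 0.00743) and the *Smtn* promoter (0.65 and 1.12, difference 0.47 ± 0.20 SE, limma adjusted p = 0.0416). The *Cnn1* call was lost without PBRM1 replicate 3 (limma adjusted p = 0.0535), and the *Smtn* call was lost when any library other than PBRM1 replicate 1 was left out (limma adjusted p from 0.0577 to 0.141). Neither passed after centring (limma adjusted p = 0.555 and 0.992) or by fold enrichment (limma adjusted p = 0.143 and 0.986).

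On pileup with all libraries, the lowest differences (BRG1 minus PBRM1) of the 18 regions were those of *Cald1*, an order that did not hold by fold enrichment or when any library other than BRG1 replicate 1 was left out. Its 4 regions away from other genes gave differences of −0.18 (at −15.1 kb), −0.031 (promoter), 0.048 (intron) and 0.093 (near the internal start), with SE of 0.19 to 0.21 and limma adjusted p of 0.444 to 0.898. These values lay among the lowest 2.69% to 11.5% of all regions, and after centring the region at −15.1 kb was called lower with BRG1 (−0.64 ± 0.18 SE, limma adjusted p = 0.0483). By fold enrichment over the local background, the same 4 regions gave 0.015 to 0.14, none called, and both *Smtn* gene regions, the *Mylk* promoter and the region at *Elof1* were lower. The intervals of the promoter difference (−0.43 to 0.37) and of the others span a wide range, so equal signal was not shown.

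At *Acta2* the difference was 0.21 ± 0.20 at the promoter and 0.15 ± 0.21 at −10.1 kb (SE, limma adjusted p = 0.363 and 0.551), and at *Mylk* it was 0.37 ± 0.20 at the promoter and 0.24 ± 0.21 in the intron (SE, limma adjusted p = 0.118 and 0.32). By fold enrichment the *Acta2* values were higher, at 0.39 and 0.48 (limma adjusted p = 0.134 and 0.0619), and the *Mylk* values were −0.032 and 0.16 (limma adjusted p = 0.921 and 0.61). Leaving out 1 library moved the *Acta2* promoter between 0.074 (without PBRM1 replicate 2) and 0.37 (without PBRM1 replicate 1), the *Mylk* promoter between 0.21 (without BRG1 replicate 1) and 0.52 (without BRG1 replicate 2), and the *Mylk* intron between 0.084 (without PBRM1 replicate 1) and 0.46 (without PBRM1 replicate 2). The sign of the *Acta2* difference at −10.1 kb turned without PBRM1 replicate 3 (−0.031) and without BRG1 replicate 2 (−0.084), and both *Acta2* differences and both *Mylk* differences were negative after centring. The largest difference of the 18 regions belonged to a neighbor and not to a contractile gene. The region at the start of *Hacd2*, a fatty acid elongation gene 277 kb downstream of the first *Mylk* start, had 0.96, 0.717 and 0.625 FPM for PBRM1 and 2.83, 1.54 and 2.06 for BRG1 (difference 1.46 ± 0.22 SE, limma adjusted p = 3.76e-05), and it kept its call after centring (limma adjusted p = 0.00979). The other called regions lay at the starts of *Ecsit* (0.58), *Selenom* (0.50) and *Agbl3* (0.57). Their calls were lost when single libraries were left out: PBRM1 replicate 2 or BRG1 replicate 3 for *Ecsit*, PBRM1 replicate 3, BRG1 replicate 1 or BRG1 replicate 3 for *Selenom*, and any of these 4 libraries for *Agbl3*.

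**Figure D4:**
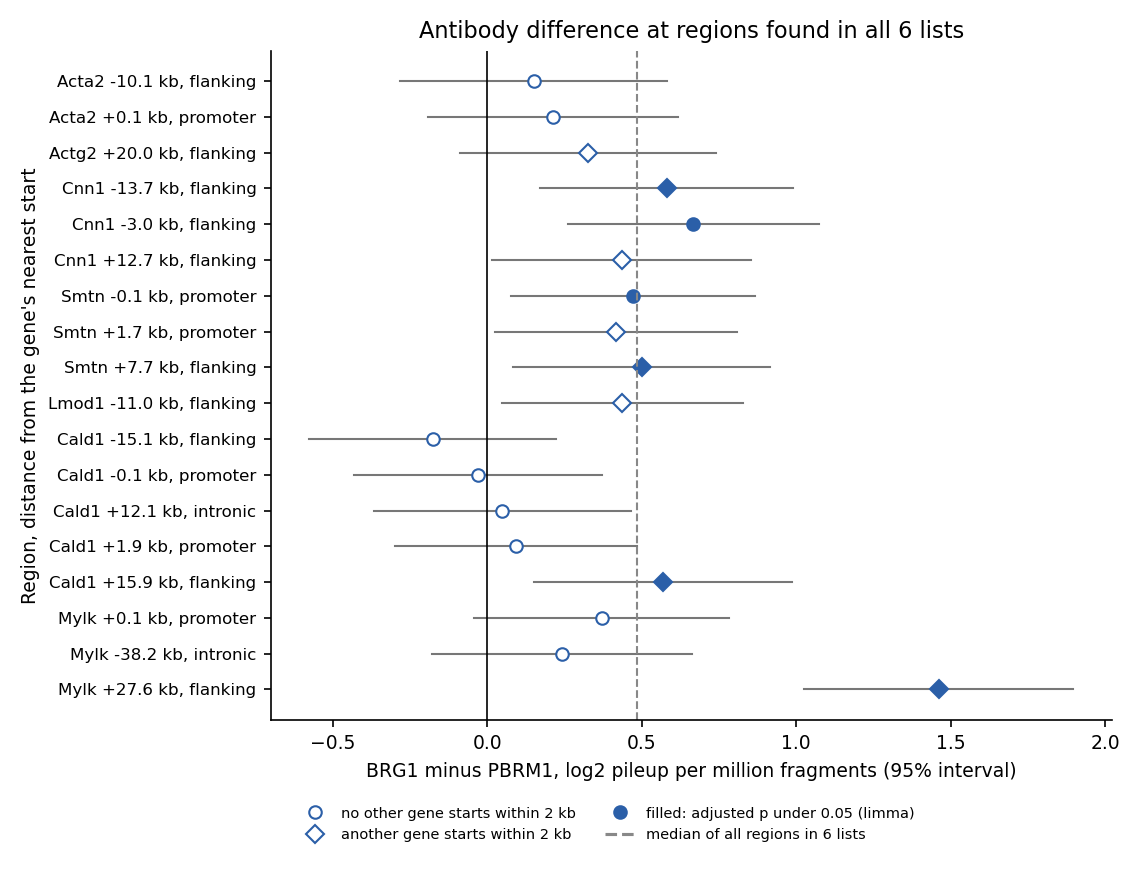
Difference between antibodies (x axis, BRG1 minus PBRM1 in log2 FPM, with 95% interval from limma) at the 18 regions found in all 6 lists, named by gene, distance from its nearest start and class (y axis). The dashed line marks the median of all 12842 regions (0.49), and the 4 *Cald1* regions away from other genes lie near 0 to its left (all negative after centring) while the region at the start of *Hacd2* lies at 1.46.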

How the data were processed

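Peak lists of 6 ChIC-Seq libraries (PBRM1 and BRG1, 3 replicates each) and 1 list per antibody called on pooled replicates were used. Per the labels, reads were processed with cutadapt, Bowtie2 and MACS2 on GRCm38.p5. Per the file headers, MACS 2.2.7.1 was run on paired-end fragments with all duplicates kept, an effective genome size of 2300000000 bp, a q cutoff of 0.05, no control file and a local background over 10 kb. Each deposited peak carries its pileup, the unscaled signal (fragment coverage) at the summit. It also carries a fold enrichment, deposited as a ratio over the local background, and a deposited q-value as −log10 q. Deposited p-values were not used. Since no control entered the calling, sites cut regardless of the antibody could be called, and their part was not measured.

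Peaks sharing at least 1 bp were merged, and the summit of a region was the median of the strongest summits of the lists. Pileup was divided by the header's fragment total. Genes came from GENCODE M21 and sequence from GRCm38.p6 (RefSeq, pysam 0.24.0), whose chromosomes no peak exceeded. Promoters of 7 of the 10 genes were matched in the RefSeq table. The antibody comparison used limma 3.58.1 (R 4.3.3) without covariates over regions with a peak in all 6 lists, at an adjusted p under 0.05. It was also run on simulated data with 200 regions changed, in both directions. The simulation held no shift over all regions, so it does not cover the shift seen in these data. A region missing from a list has no value and did not enter. Counts over genes had no test. Named were all 10 genes, every region in all 6 lists, start sites joined within 500 bp, neighbors starting within 2 kb, and from 3 further lists the genes with no promoter peak and the 3 with the highest mean pileup. *Lmod3*, *Mylk3*, *Nefl*, *Tagln3*, and the regions in 4 or 5 lists outside promoters, were named after their values were seen, and all cell type markers were read. Some sequences are not reported here. The genes and lists were chosen with earlier results of these data known. Alternatives were another scaling, fold enrichment, a replicate block, −log10 q of at least 5, 201 bp summit windows, other distances and starts, and leaving out each replicate.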

Additional observations from a re-analysis of the deposited data

How the results depend on the processing

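Of all regions in 6 lists, 6778 were called different between antibodies, 418 after centring and 1336 by fold enrichment. The median difference over the 18 contractile gene regions moved from 0.39 to −0.073 and 0.12. Peaks with −log10 q of at least 5 left 3 genes with a promoter peak in all 6 lists and 10 regions. The replicate block gave 6665 called regions and took the call of the *Smtn* promoter (limma adjusted p = 0.0521). Deviations of libraries with the same replicate number had correlations of −0.0286 to 0.0037, so the numbers were not treated as a pairing.

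After centring the sign turned for *Acta2* (−0.32 upstream, −0.25 promoter), the regions at *Dguok* (−0.14), *Elof1* (−0.032) and *Timm17a* (−0.029), *Smtn* (−0.049 internal), *Cald1* (−0.42 intron, −0.37 internal) and *Mylk* (−0.096 promoter, −0.23 intron), none of them called before or after. By fold enrichment it turned for *Elof1* (−0.055), *Smtn* (−0.0059 promoter, −0.099 internal), *Cald1* (0.14 upstream, 0.094 promoter) and *Mylk* (−0.032 promoter), none called by fold enrichment though the *Smtn* promoter was called on pileup. The cause was not tested.

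Leaving out each replicate gave 4680 to 6655 called regions, medians of 0.32 to 0.47, 5 or 6 genes with a promoter peak in every list, 18 or 19 regions, and a difference of 5.67 to 14.17 peaks per library. Single regions then ranged from −0.084 to 0.29 for *Acta2* upstream, −0.15 to 0.070 for the *Cald1* promoter and −0.12 to 0.17 for the *Cald1* intron. The *Cald1* region at −15.1 kb gave no value without PBRM1 replicate 3. Regions with a CArG box numbered 3 instead of 2, both with a mismatch allowed and within 250 bp, alternatives chosen after seeing the data. At this depth a promoter with no called peak may still hold fragments.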
